A study of Megalobrama amblycephala with 2 samples.

Results

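The dominant transcripts of blunt snout bream liver were chosen by level: they are the assembled transcript components whose mean RPKM (reads scaled by both transcript length and library size) over the heat and the control library was at least 1000, and 127 of 35281 components met this rule. RNA sequencing was run on liver of juvenile Megalobrama amblycephala, a farmed freshwater cyprinid, with 1 library from the heat-treatment group held at 35 °C for 72 h and 1 library from control fish kept at 25 °C over those same hours. Each group comprised 3 tanks of 50 fish, all fasted before transfer to the test tanks, and livers of 3 fish per group were collected for sequencing. Whether their RNA was pooled is not stated in the labels. One sentence of the series' design text speaks of nitrite, whereas the sample labels give temperature alone, and temperature defines the groups here. With 1 library per temperature no difference has a replicate check, and temperature cannot be told apart from differences between fish, tanks or libraries. In whole liver, fewer cells of a type and less RNA per cell cannot be told apart either.

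Liver is a secretory organ. Hepatocytes release most plasma proteins, among them apolipoproteins, fibrinogen chains, transferrin, complement factors and protease inhibitors, and the messages of such proteins, together with those of ribosomal proteins and mitochondrial genes, usually fill much of a liver's polyadenylated RNA. In fishes, as in other vertebrates, warming induces heat shock proteins, which are chaperones that hold and refold damaged proteins, and stress can also alter the output of plasma proteins. The deposited table gives component identifiers, which are labels of the assembly, without gene names. Such labels could not be looked up in the species' RefSeq gene table, where 0 of all identifiers were found, the 127 dominant ones included. No dominant component is therefore assigned to any of these classes, the tissue label could not be checked against liver markers, and components are described by their rank in mean RPKM, with 4 identifiers printed.

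The dominant components, 0.36% of the components listed, held most of the transcript abundance at both temperatures. They summed to 473301 RPKM in the heat library, which was 61.6% of that library, and to 455128 RPKM in the control library, which was 60.6%. Because RPKM is already divided by transcript length, these are shares of relative transcript abundance and not of reads. The first-ranked component of each library held 6.28% of the heat library and 4.72% of the control library. The first 5 held 19.2% in heat and 18.3% in control, and the first 50 held 47.2% in heat and 46.1% in control. It took 61 components to reach 50% of the heat library and 65 to reach 50% of the control library. The inverse Simpson index, which gives the number of equally abundant components that would be as concentrated, was 88.2 in heat and 95.8 in control. The heat library was thus slightly more concentrated on each of these measures. They overlap, because each includes the first-ranked component of its library. The gap between the libraries was wider for that component alone than for the first 5 or the first 50. The order seen for the first 5 and the first 50 therefore rested on the first-ranked component. The inverse Simpson index was not computed without it. To reach 25%, 9 components were needed in both libraries, and the first 3 held 14.1% in heat and 14.0% in control.

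**Figure D1:**
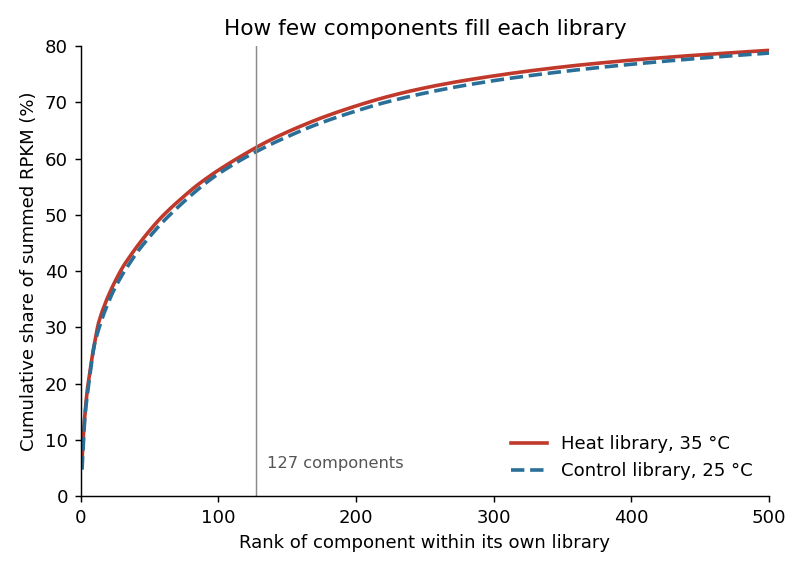
Cumulative share of summed RPKM (y axis, %) against the rank of each component within its own library (x axis) for the heat library (solid line) and the control library (dashed line), with a vertical line at 127 components. Both lines climb steeply, and the first 127 components of each library reach 61.9% in heat and 61.2% in control.

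Most dominant components stood at close levels at both temperatures. The log2 fold, computed as log2((heat + 1)/(control + 1)) on RPKM values, had a median of 0.01 over the 127 components, against 0.04 over all 35281. Of the 127, 66 had the higher RPKM in heat and 61 the lower, against 18754 and 16402 of all 35281. The heat library also had the larger summed RPKM, 767855 against 750651 in control. By share of the sum the balance of the 127 was reversed, with 60 larger in heat and 67 smaller. Over all 35281 it was not, with 18268 larger in heat and 16991 smaller. Less than 1.2-fold apart were 66 of them (52.0%), against 37.2% of the 29462 components that averaged 1 RPKM or more. At least 2-fold apart were 18 of them (14.2%), against 12.7% of those 29462. At least 2-fold higher in heat were 9 components (7.09%), where the share over all components compared was 6.64%, and at least 2-fold lower were 9 (7.09%), where it was 6.1%. The share of dominant components past 2-fold was therefore near that background, which is mostly components of 1 to 10 RPKM (25849 of 29462). In the class next below, of 100 to 1000 RPKM, 23.1% were at least 2-fold apart, with 9.19% higher in heat and 13.9% lower. The dominant shares were below each of these. At least 4-fold higher in heat were 5 (3.94%, background 0.913%), and at least 4-fold lower was 1 (0.787%, background 0.879%). In the class of 100 to 1000 RPKM, 4.06% differed at least 4-fold upward in heat and 4.06% downward. The share of 4-fold higher components was therefore not particular to the dominant ones, while their share of 4-fold lower ones, 0.787%, was the smaller. The choice by mean level did not use the direction of the difference. It does admit a component that is abundant in 1 library alone, and such a component has a large fold by construction.

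**Figure D2:**
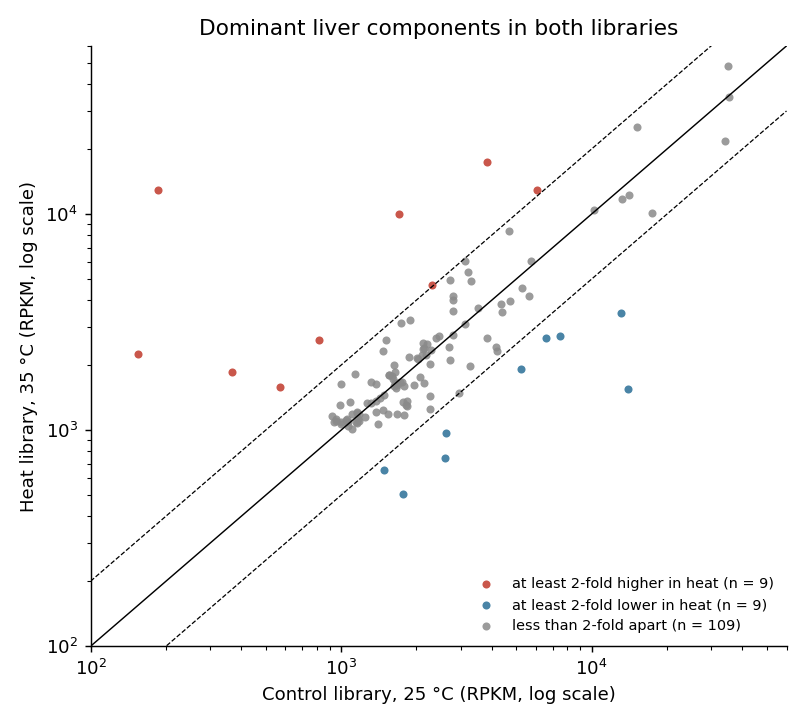
RPKM of the 127 dominant components in the heat library (y axis, log scale) against the control library (x axis, log scale). The solid line marks equal values and the dashed lines 2-fold differences; 109 components lie between the dashed lines, 9 above and 9 below.

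The near-constant total covered an exchange among the members. Shares of a library add up to 100%, so over all components gains and losses are equal by construction. Of all components, 18268 had a larger share in heat and 16991 a smaller one. Added up, 60 dominant components had a larger share in heat than in control, by 12.8 percentage points of summed RPKM in all. A smaller share was found for 67, by 11.8 points. The difference of these, 1.01 points, is the whole change in the dominant share. This difference depended on single components, each left out of both libraries with shares recomputed on the remaining components. It was then 0.359 points without the component with the largest fold in heat and 0.371 points without the most abundant component. Without the component with the largest fold in control it was 1.67 points. The components with the largest folds were picked by their own difference, so the direction of those shifts was set in advance. On shares of the full libraries, the difference turned to -0.855 points over the 112 components at 1000 RPKM or more in both libraries. These leave out 11 components that passed 1000 RPKM in heat alone and 4 that passed it in control alone. The sum of absolute share changes divided by 2, a measure of how much abundance changed hands, was 12.3 points among the dominant components and 20.4 points over all components. The dominant components thus accounted for 60.4% of the exchange while holding about that share of each library. Set against their own mean share, the exchange was 20.2% for the dominant components, 19.4% for components of 100 to 1000 RPKM, 20.8% for those of 10 to 100 RPKM and 22.8% for those of 1 to 10 RPKM. On this measure the dominant components did not stand out from the lower classes, and the counting error contained in each class was not estimated.

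Few components carried the exchange, and 80 of the 127 changed by less than 0.1 points each. A change in points scales with level, so this is in part set by the wide range of levels in the class. The 77 components ranked 51 to 127 held 14.8% of the heat library together. The largest gains and losses were picked by the change itself, which raises their part of the sum. The 4 largest gains made up 49.2% of all gains, at 13.5% of the heat library and 7.24% of the control library together. The 4 largest losses made up 48.1% of all losses, at 4.80% of the heat library and 10.5% of the control library together. The 18 components at least 2-fold apart held 10.6% of the heat library and 9.43% of the control library. The other 109 held 51.0% of the heat library and 51.2% of the control library, so the bulk of the dominant share was in components less than 2-fold apart.

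**Figure D3:**
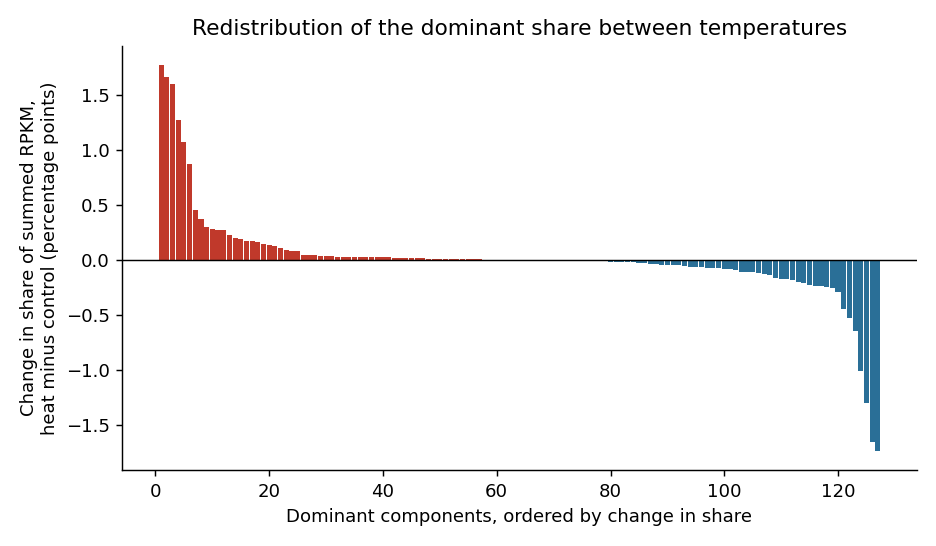
Change in share of summed RPKM, heat minus control (y axis, percentage points), for each of the 127 dominant components in order of that change (x axis); bars above 0 are larger shares in heat and bars below 0 smaller ones. A gain of at least 1 point was found for 5 components and a loss of at least 1 point for 4, while most bars are close to 0.

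Of the 10 components with the highest means, 8 were less than 2-fold apart, and the eighth and the last of them, described with the higher components, were 4.59 and 2.12 times as high in heat. The first-ranked component stood at 48239 RPKM in heat, against 35149 RPKM in control, which is 1.37 times as high in heat. It alone gained 1.60 points of share. The second-ranked component stood at 34954 RPKM in heat, against 35445 RPKM in control, with a log2 fold of -0.02. The third-ranked component stood at 21684 RPKM in heat, against 34217 RPKM in control, with a log2 fold of -0.66, and had the largest loss of share of all 127, at -1.73 points. The fourth stood at 25345 RPKM in heat, against 15219 RPKM in control, with a log2 fold of 0.74. The fifth stood at 10165 RPKM in heat, against 17479.7 RPKM in control, with a log2 fold of -0.78. Large changes of share were therefore reached by very abundant components at folds below 2. The sixth, seventh and ninth components were near equal, with log2 folds of -0.21, -0.17 and 0.03.

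Of the components at least 2-fold higher in heat, the widest difference was that of comp17100_c0, thirteenth in mean level. It stood at 12959.97 RPKM in heat, against 185.73 RPKM in control, which is 69.8 times as high in heat, with a log2 fold of 6.12. It was the sixth most abundant component of the heat library and the 386th of the control library, with a share of 1.69% in heat and 0.0247% in control. The next widest was comp8286_c0, at 2252.4 RPKM in heat, against 154.04 RPKM in control, which is 14.6 times as high in heat, a log2 fold of 3.86. Both identifiers group 2 assembled transcripts, and neither reached 200 RPKM in control, so both passed 1000 RPKM in the heat library alone.

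The other 7 components of that direction were at 367 RPKM or more in both libraries. The eighth-ranked component stood at 17481 RPKM in heat, against 3809 RPKM in control (log2 fold 2.20) and had the largest gain of share, at 1.77 points. The sixteenth stood at 9996 RPKM in heat, against 1709 RPKM in control, which is 5.85 times as high in heat. The component of rank 10 stood at 12880.1 RPKM in heat, against 6074 RPKM in control, just past 2-fold at 2.12 times. The remaining 4 of these had 1582 to 4682 RPKM in heat and 367 to 2315 RPKM in control, with log2 folds of 1.02 to 2.33. Together the 9 components held 8.63% of the heat library and 2.13% of the control library.

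Of the components at least 2-fold lower in heat, the widest difference was that of comp8325_c0, twelfth in mean level. It stood at 1551 RPKM in heat, against 13926 RPKM in control, which is 8.98 times as high in control, with a log2 fold of -3.17. It was 83rd in the heat library and the seventh most abundant component of the control library. The next was comp17596_c2, at 3478 RPKM in heat, against 13123 RPKM in control, 3.77 times as high in control, with a log2 fold of -1.92. Unlike the leading component of the opposite direction, both stayed above 1000 RPKM in the library where they were lower.

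The other 7 components lower in heat had log2 folds of -1.80 to -1.17. The seventeenth-ranked component, which groups 61 assembled transcripts, the most of any dominant component, stood at 2742 RPKM in heat, against 7512 RPKM in control. The twentieth stood at 2664 RPKM in heat, against 6559.8 RPKM in control, and the twenty-ninth at 1923 RPKM in heat, against 5213 RPKM in control. The remaining 4 had 509 to 974 RPKM in heat and 1477 to 2632 RPKM in control. Together the 9 components held 1.98% of the heat library and 7.30% of the control library. The share of the 9 higher components changed by 6.50 points and that of the 9 lower ones by -5.32 points. Gains and losses over all components are equal by construction, so the like size of these values is no evidence of a link between them.

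Rank agreement between the libraries was higher over the whole class than within parts of it cut by mean level. Over the 127 components the RPKM values of the libraries correlated with Spearman's rho = 0.70 and their log2 values with Pearson's r = 0.67. Over the 468 components of 100 to 1000 RPKM rho was 0.57. All these values describe components of the same 2 libraries, are limited in range by the choice of components, and have no test. The classes span different ranges of level, so their values of rho do not rank them. Within ranks 1 to 10, 11 to 50 and 51 to 127 rho was 0.52, 0.0021 and 0.30, and over the 58 components that averaged 2000 RPKM or more it was 0.47. The parts were cut by the mean of both libraries, which by itself lowers rho within a part. The values for parts therefore do not show whether order was kept there. Ranked among all components of a library, a dominant component differed by a median of 13 ranks between the libraries. Within 10 ranks were 59 components, and over 100 ranks apart were 7, of which 5 ranked higher in heat and 2 ranked lower. All 7 reached 1000 RPKM in 1 library alone, which the choice by mean level allows. Such wide rank differences are therefore in part set by that choice. The first 2 components exchanged places, and the ninth-ranked component held rank 10 in both libraries. Of the first 20 components of each library, 12 were shared, which is 60% of each list. Of the first 50, 39 were shared, which is 78%, and of the first 127, 114 were shared, which is 89.8%.

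**Figure D4:**
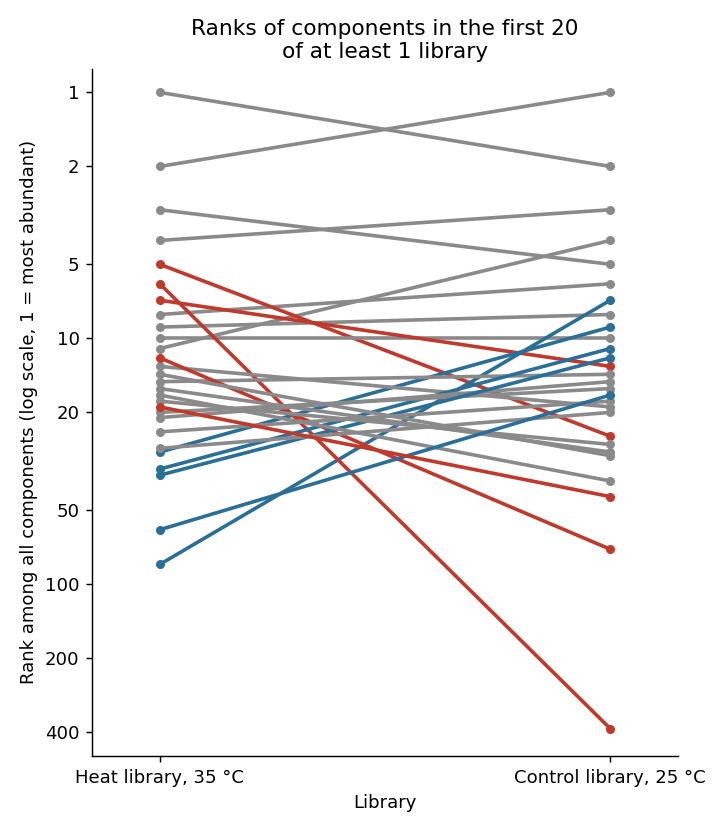
Rank among all components (y axis, log scale, 1 is the most abundant) in the heat library (left) and the control library (right) for the 28 components within the first 20 of at least 1 library. Red lines are components at least 2-fold higher in heat (5), blue lines at least 2-fold lower (5) and grey lines less than 2-fold apart (18); the steepest line runs between rank 6 in heat and rank 386 in control.

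Within the dominant class, the median difference was wider in the first 50 components than in the rest. The first 10 components by mean held 26.7% of the heat library and 24.6% of the control library, with a median absolute log2 fold of 0.56. The 40 components ranked 11 to 50 held 20.2% of the heat library and 20.7% of the control library, with a median absolute log2 fold of 0.52. The 77 components ranked 51 to 127 held 14.8% of the heat library and 15.2% of the control library, with a median absolute log2 fold of 0.20. Less than 1.2-fold apart were 4 of the first 10, 15 of the next 40 and 47 of the last 77. At least 2-fold apart were 2, 8 and 8 of them in the same order. For comparison, components of 100 to 1000 RPKM had a median absolute log2 fold of 0.42 and those of 10 to 100 RPKM one of 0.43. In the class of 100 to 1000 RPKM, 34.6% were less than 1.2-fold apart and 23.1% at least 2-fold apart, and in that of 10 to 100 RPKM 34.0% and 17.3%. The components ranked 51 to 127, with 61.0% less than 1.2-fold apart and 10.4% at least 2-fold apart, were closer between the libraries than both classes on all 3 measures. For the first 10 and the next 40, the median was wider than in both classes, while 40% and 37.5% were less than 1.2-fold apart and 20% of each were at least 2-fold apart, so these measures gave no single order. Exchange of abundance in relation to the mean share was 17.4%, 28.8% and 13.1% for ranks 1 to 10, 11 to 50 and 51 to 127, which places the widest relative exchange in the middle group. That value rested in large part on the components ranked 11, 12, 13 and 16, with share changes of -1.30, -1.65, 1.66 and 1.07 points.

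**Figure D5:**
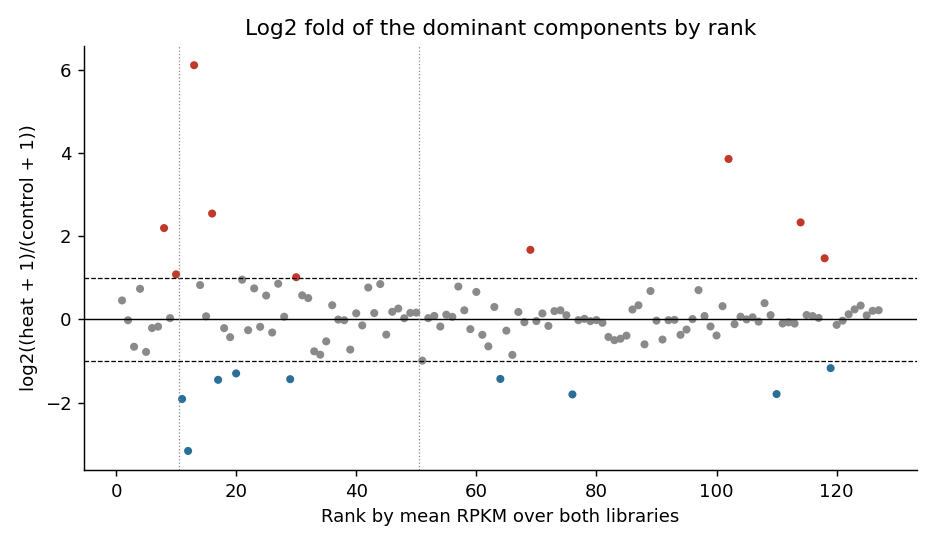
Log2 fold, log2((heat + 1)/(control + 1)), of each dominant component (y axis) against its rank by mean RPKM (x axis); dashed lines mark 2-fold differences and dotted lines the limits after ranks 10 and 50. Red points are at least 2-fold higher in heat, blue points at least 2-fold lower, and most points beyond rank 50 lie close to 0.

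Most dominant components passed 1000 RPKM at both temperatures. This was so for 112 of the 127. A further 11 passed it in heat alone, and their control values ran from 154.04 to 999.53 RPKM, with 6 of them at 900 RPKM or more and 5 at least 2-fold apart. Another 4 passed it in control alone, with heat values of 509.04 to 974.22 RPKM, and all 4 were at least 2-fold apart. Thus 9 of the 18 components past 2-fold reached 1000 RPKM in 1 library only. A component with a mean near the limit and at least 2-fold apart does so by construction, so this count is in part set by the choice. Outside the class, 10 components reached 1000 RPKM in heat and 5 in control without a mean of 1000. Just inside the limit, the last member stood at 1094 RPKM in heat, against 939 RPKM in control. Just outside it, the first non-member stood at 476.48 RPKM in heat, against 1522 RPKM in control, a mean of 999.32 RPKM.

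Most dominant components were single assembled transcripts. One transcript was listed for 102 of the 127 (80.3%), against 89.2% of all components and 69.0% of components of 100 to 1000 RPKM, 2 to 9 transcripts for 15, and 10 or more for 10. At least 2-fold apart were 10 of the 102 with 1 transcript, 3 of the 15 with 2 to 9 and 5 of the 10 with 10 or more. The median absolute log2 fold was 0.21, 0.37 and 1.10 in the same order. In components of 100 to 1000 RPKM the corresponding shares past 2-fold were 23.2% of 323, 25.0% of 100 and 17.8% of 45, so this order was not seen one class below. Components with many transcripts can hold alleles, splice forms or related genes whose reads were divided among them. The deposited value of each component is given here, and its division among transcripts was not analysed.

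The identifiers place the 127 components in 125 assembly clusters, taken as components with the same cluster number. In 2 clusters a pair of components was dominant. In the first pair, the component ranked 31st stood at 4164 RPKM in heat, against 2787 RPKM in control, while the one ranked 110th stood at 509 RPKM in heat, against 1770.48 RPKM in control, so the pair went opposite ways. In the second pair, values were 1302 and 1132 RPKM in heat and 992 and 1052 RPKM in control, so both were slightly higher in heat. In 15 clusters, 25 further components were below the limit. They summed to 3491 RPKM in heat, against 4041 RPKM in control, little beside the dominant components. Of these 25, 15 differed in the direction of the cluster's leading dominant component and 10 in the opposite direction. Only 9 of the 25 averaged 100 RPKM or more, and 6 of those went the same way. Some leading components were near equal between the libraries, such as the second-ranked one (log2 fold -0.02), so direction means little there. The third-ranked component had a cluster partner at 146.77 RPKM in heat, against 362.97 RPKM in control, lower in heat as it was, and a further one at 670.92 RPKM in heat, against 501.93 RPKM in control, which was higher. Another partner, at 7.73 RPKM in heat, against 131.86 RPKM in control, was lower in heat. A partner of comp17596_c2 stood at 0.45 RPKM in heat, against 202.35 RPKM in control, lower in heat with a log2 fold of -7.13. A partner of the second-ranked component stood at 483.13 RPKM in heat, against 134.27 RPKM in control, and was higher in heat.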

How the data were processed

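Polyadenylated liver RNA was sequenced as paired-end libraries with 100 bp reads, per the labels' protocols, 1 library per temperature. The authors deposited 1 table of RPKM values per component, a unit taken per the file headers, and the submitters' processing notes name Bowtie, RSEM and edgeR without role or version. The sources used here do not give the assembler, the filters or the read numbers. Components were taken that averaged 0.5 to 1.5 RPKM and lay at or above a lower floor in each library. Their log2 ratios piled up at -0.059 (404 components within 0.01, median window 96). If the piled-up components had equal read numbers and RPKM was scaled by library totals, heat depth was 1.04 times that of control. Neither condition was checked. Absolute depth is unknown, and no interval or p-value is given.

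Shares, ranks and folds were computed with Python 3.11.15, numpy 2.4.6 and pandas 2.3.3, and plotted with matplotlib 3.10.9. The code for the fold rule and the measure of exchanged share was tested on simulated data with 200 components changed 4-fold. Code for ranks and correlations was not. The depth of the simulated data was assumed, so this test does not bear on how reliable the reported folds are. The background is every component that averaged 1 RPKM or more. The members, the size rules and the classes were chosen with earlier results of these data known. The 4 printed identifiers are the members with the 2 most extreme log2 folds in each direction. RefSeq gene names came from assembly ASM1881202v1.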

Additional observations from a re-analysis of the deposited data

How the results depend on the processing

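Pseudocounts of 0.1 and 5 RPKM, and none, gave 9 dominant components past 2-fold in each direction, as in the report; each of 4 rescalings of the heat library gave 8 higher and 10 lower in heat, and left 110 to 111 components (112 without rescaling) at 1000 RPKM or more in both libraries. With a minimum mean of 500 RPKM (219 components), 14 were higher and 13 lower. With 2000 RPKM (58 components) the counts were 5 and 5, with both values at 1000 RPKM or more (112 components) 4 and 5, and at 4-fold 5 and 1. With either value at 1000 RPKM or more (142 components) they were 11 and 11, and with clusters summed 9 and 8.

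The dominant share in heat and control was 70.4% and 69.4% at 500 RPKM, 49.1% and 47.6% at 2000 RPKM, 63.5% and 62.3% by the higher value, 57.6% and 58.5% by the lower value, 62.1% and 61.2% with clusters summed, and 59.1% and 58.7% without the most abundant component. Without comp17100_c0 it was 60.98% and 60.6%, and without comp8325_c0 61.6% and 59.9%. These removals, and the listing of the share difference as a result, were chosen after seeing the data. Wherever a component was left out, shares were recomputed on the remaining components. The difference, 1.01 points, was 0.983 at 500 RPKM, 1.46 at 2000 RPKM, 1.25 by the higher value, 0.925 with clusters summed, 0.371 without the most abundant component, 0.359 without comp17100_c0 and 1.67 without comp8325_c0. It turned to -0.855 by the lower value, which by construction leaves out components abundant in 1 library alone. The share that changed hands, 12.3 points, was 13.5 at 500 RPKM, 10.6 at 2000 RPKM and by the lower value, 12.8 by the higher value, 12.2 with clusters summed, 12.1 without the most abundant component, 11.6 without comp17100_c0 and 11.7 without comp8325_c0. Spearman's rho, 0.70, was 0.79 at 500 RPKM, 0.47 at 2000 RPKM, 0.72 by the higher value, 0.82 by the lower value and 0.71 with clusters summed. For the moved values the cause was not tested beyond the change of members.

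No paired analysis was possible because there was 1 library per group, and leaving out a replicate did not apply. Without read numbers the counting error of single values is unknown.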

Other observations

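The identifiers of the dominant components were unevenly spread over the component numbers, a feature noticed after seeing the data. Numbers 18000 to 18999 held 64 of the 127, numbers 8000 to 8999 held 18 and numbers 5000 to 5999 held 15. These 3 ranges, picked as those with the most dominant components, held 76.4% of the dominant components and 7.69% of all components. The contrast is in part set by that choice, and other classes of mean level were not counted in these ranges. Of the first 10 by mean level, 7 lay in them. The median log2 fold of the dominant components was 0.03 in the first range, 0.07 in the second and -0.13 in the third, against 0.01, 0.05 and 0.03 for all components of at least 1 RPKM there. What the numbering records is not given in the sources used here.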
